A study of Homo sapiens with 4 samples.

Results

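The MAP kinase phosphatases of the DUSP family were followed through RNA sequencing of HEK293T cells, a human embryonic kidney line, that carried different forms of PBRM1. The members were the 10 genes with the symbols DUSP1, DUSP2, DUSP4, DUSP5, DUSP6, DUSP7, DUSP8, DUSP9, DUSP10 and DUSP16, out of 58735 in the deposited count table, and each symbol matched 1 row. They were chosen by name, with the values of these libraries already known, so every value below is a description of the libraries and carries no test. In all groups PBRM1 had been disrupted with CRISPR, and a plasmid for GFP-tagged PBRM1 had then been transfected for 48 h. The plasmid carried either the unaltered protein (WT) or the mutant P1048R, T1202K or C1233W, each named for its change in the BAH (bromo-adjacent homology) domains of PBRM1, which belongs to PBAF, a complex that remodels chromatin. There was 1 library per construct, so no difference has a replicate check, and a difference between constructs cannot be told apart from a difference between cultures. The labels do not say whether the edited line is a single clone.

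MAP kinase phosphatases remove phosphate from the threonine and the tyrosine of the activation loop of ERK, JNK and p38, and so switch these kinases off. Many are transcribed in response to the kinases they inactivate, which makes them feedback regulators. DUSP1, DUSP2, DUSP4 and DUSP5 are inducible nuclear enzymes, DUSP6, DUSP7 and DUSP9 are cytoplasmic and prefer ERK, and DUSP8, DUSP10 and DUSP16 prefer JNK and p38.

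The libraries held 10246250 to 11205322 counted reads. PBRM1 stood at 22768 CPM in WT, 8805 in P1048R, 15262 in T1202K and 60509 in C1233W, in CPM, the reads of a gene relative to the library size after TMM scaling (trimmed mean of M-values). Its amount thus differed between the libraries together with the mutation, and its part in the values below was not tested. Of the HEK293 markers, vimentin (VIM) was at 536 to 709 CPM, NEFM at 172 to 345, NEFL at 78.8 to 140, KRT18 at 53.0 to 69.7, KRT8 at 26.1 to 45.4 and PAX2 at 5.65 to 7.12. Blood and endothelial markers (PTPRC, HBB, CD3E, PECAM1, CDH5) had 0 to 3 reads in each library and the liver marker ALB 2 to 18, whereas the fibroblast genes COL1A1 (15.8 to 30.2 CPM) and LUM (1.09 to 2.22 CPM) were detected in all libraries.

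Of the 10 members, 9 reached 1 CPM in at least 1 library, the level at which genes were compared. The exception was DUSP2, with 2 reads in WT, 3 in P1048R, 2 in T1202K and 2 in C1233W. These counts lie at or under a floor of 3 reads per library, so no ratio is given for it. Per kilobase of exon, DUSP1 had the highest level of the family in each library (25.5 to 35.7 RPKM, which is CPM divided by exon length in kilobases), followed by DUSP16 (15.9 to 25.4 RPKM). DUSP6 was the lowest of the 9, at 0.610 to 1.29 RPKM. DUSP8 took a different place in the libraries on this scale: it was the seventh of the 10 in WT at 1.85 RPKM, the third in P1048R at 7.84 and in T1202K at 7.06, and the fifth in C1233W at 4.88.

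**Figure D1:**
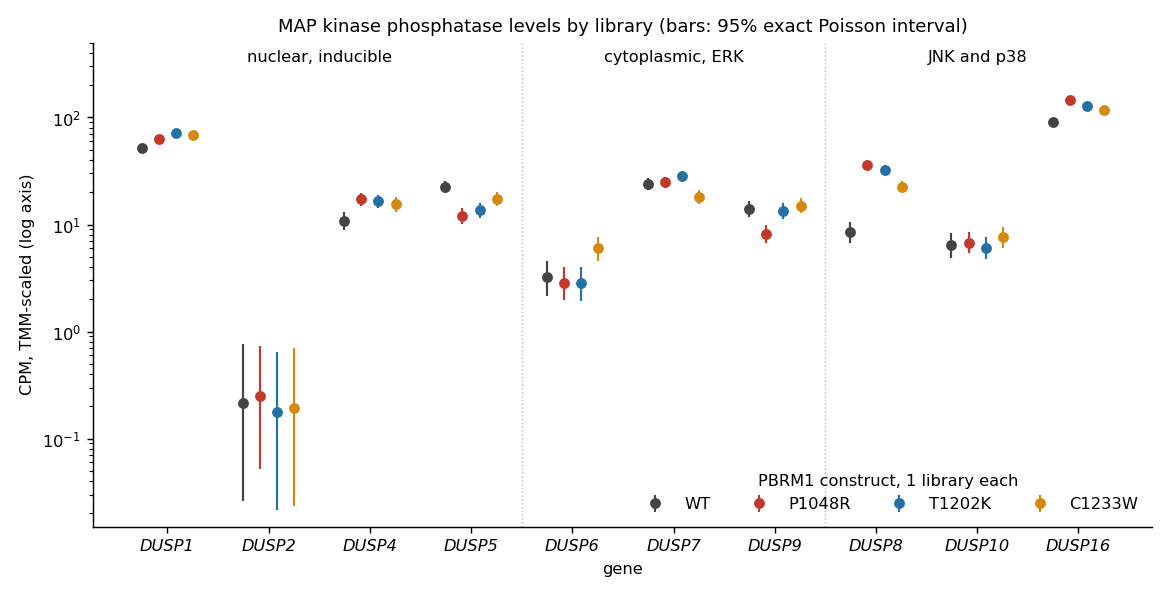
Level of each MAP kinase phosphatase gene in each library, in TMM-scaled CPM on a log axis, with 95% exact Poisson intervals as bars; colours are the 4 PBRM1 constructs with 1 library each, and dotted lines divide the nuclear, cytoplasmic and JNK or p38 groups. DUSP8 shows the widest spacing between libraries, 8.56 CPM in WT against 36.2 in P1048R, and DUSP2 lies under 0.3 CPM in each library.

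A gene was called different between a pair of libraries by a size rule: a difference of 2-fold or more whose 95% counting interval, on the log2 scale, did not contain 0. Across the 16262 genes compared, the rule called 7.5% in P1048R against WT, 5.15% in T1202K against WT and 5.4% in C1233W against WT. Among the 9 members it called 1 in each of these comparisons, DUSP8, and in each it was higher in the mutant; the share of all genes called higher was 4.48%, 2.95% and 4.19%. None of the 9 was called lower, beside 3.02%, 2.21% and 1.21% of all genes. Many genes outside the family thus passed the same rule. Of the 9 members, 6 lay above and 3 below WT in P1048R, 5 and 4 in T1202K, and 7 and 2 in C1233W. The family median of the log2 ratio to WT was 0.08 in P1048R, 0.23 in T1202K and 0.37 in C1233W. For all genes compared the medians were −0.04, −0.01 and −0.01. The comparisons share the WT library, so a deviation of that library enters each of them.

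**Figure D2:**
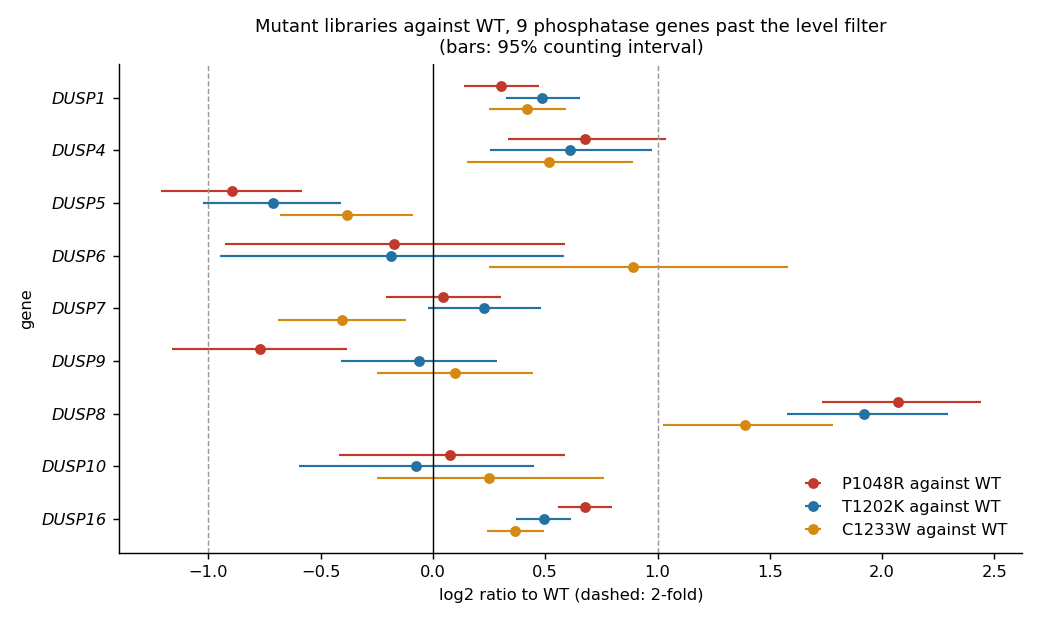
Log2 ratio of each mutant library to WT for the 9 phosphatase genes past the level filter, with 95% counting intervals as bars and dashed lines at 2-fold. DUSP8 lies beyond 2-fold in P1048R, T1202K and C1233W (2.07, 1.92 and 1.39), and DUSP5 lies below 0 in each.

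DUSP8 dephosphorylates mainly JNK and p38 and is known from brain and heart. Its gene (ENSG00000184545) spans bases 1554044 to 1571920 of chromosome 11 in GRCh38 and is read from the minus strand. It stood at 8.56 CPM in WT (80 reads), 36.2 in P1048R (432 reads), 32.6 in T1202K (369 reads) and 22.5 in C1233W (233 reads). WT was low and the mutants were high, and the 95% interval of WT (6.79 to 10.7 CPM) did not overlap those of the mutants, the lowest of which reached from 19.7 to 25.6 CPM. P1048R was 4.21-fold above WT (interval 3.32 to 5.44), T1202K 3.79-fold (2.98 to 4.91) and C1233W 2.62-fold (2.03 to 3.44). Of the 16262 genes compared, 118 had a higher ratio to WT than DUSP8 in P1048R, 101 in T1202K and 408 in C1233W. Among the mutants, P1048R and T1202K did not differ beyond counting error (log2 ratio of T1202K to P1048R −0.15, −0.36 to 0.05). C1233W was lower than P1048R by −0.68 (−0.92 to −0.45) and lower than T1202K by −0.53 (−0.77 to −0.29), both short of 2-fold.

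Of the 8 members with a promoter sequence, DUSP8 was the only one with a pair of complete cyclic AMP response elements, the palindrome bound by CREB and ATF factors, in its RefSeq promoter. These sequences (250 bases before to 50 after each start, GRCh38.p14) were matched by symbol, and the 8 members had 10 starts between them. For DUSP8 and DUSP16 the RefSeq start lies upstream of the gene's start in GENCODE. The 250 bases upstream are shown for DUSP8 because its RNA differed most, for DUSP1 because it holds the same element, and for DUSP16 because its RNA was lowest in WT like theirs while its promoter holds none of the elements but a GC box. Capitals mark matches on either strand. The CRE was searched as TGACGTCA and the E-box of MYC and USF factors as CACGTG. The GC box of SP1 was searched as GGGCGG, while CCAAT stands for the box bound by NF-Y and TATAAA for the TATA box. Adjacent matches run together, and no marked match overlaps another.
DUSP8, chr11:1572272-1572521, minus strand: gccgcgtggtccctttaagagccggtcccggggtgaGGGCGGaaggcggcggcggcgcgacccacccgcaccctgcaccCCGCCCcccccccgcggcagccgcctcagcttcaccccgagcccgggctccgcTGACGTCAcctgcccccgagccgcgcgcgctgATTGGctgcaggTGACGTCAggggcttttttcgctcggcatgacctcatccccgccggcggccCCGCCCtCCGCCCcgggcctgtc
DUSP1, chr5:172771196-172771445, minus strand: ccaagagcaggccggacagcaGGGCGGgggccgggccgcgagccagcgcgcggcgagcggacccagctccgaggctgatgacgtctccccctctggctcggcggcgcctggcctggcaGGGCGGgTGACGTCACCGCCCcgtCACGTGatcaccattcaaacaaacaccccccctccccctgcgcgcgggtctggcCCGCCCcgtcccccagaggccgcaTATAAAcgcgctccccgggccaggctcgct
DUSP16, chr12:12562864-12563113, minus strand: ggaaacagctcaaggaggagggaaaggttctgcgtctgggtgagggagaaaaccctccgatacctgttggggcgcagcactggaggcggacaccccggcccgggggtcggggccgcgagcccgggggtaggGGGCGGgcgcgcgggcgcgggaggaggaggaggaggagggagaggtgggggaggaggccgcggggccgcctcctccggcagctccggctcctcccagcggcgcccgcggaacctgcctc

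In the DUSP8 promoter the CRE matches began 118 and 74 bases before the start, and in the DUSP1 promoter the single match began 125 bases before it. The other 6 members searched had no CRE match in this window. Of all 35116 RefSeq promoters of this length, 1.85% held a CRE, and 21 held at least 2. Of 423 compared genes with a CRE, 4.0% were called higher than WT in P1048R, 3.3% in T1202K and 4.3% in C1233W. Of 10730 compared genes with none, these shares were 3.9%, 2.6% and 3.7%. Called lower were 0.47%, 0.24% and 0.24% of those with a CRE (2, 1 and 1 genes). Of those with none, 1.92%, 1.15% and 0.48% were called lower. Whether the element bears on the DUSP8 level was not tested. A GC box was found in 7 of the 8 members, where 45% of all promoters hold one. A CCAAT box was found in 4 (34.6%), an E-box in 2 (7.26%) and a TATA box in 1, DUSP1 (11.5%). A member counted if any of its starts matched, whereas the shares are per promoter. The GC content of the member promoters was 55 to 78.33%, beside a median of 58.67% for all promoters. None of the 8 matched the AP-1 site TGANTCA (7.71%) or the ETS site CCGGAA (17.2%). Nor did any of them match the site TGATGNAA of C/EBP and ATF4 dimers (3.62%) or the CArG box of SRF (1.29%). A match is a run of letters and not a shown binding site.

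The neighbours of DUSP8 on chromosome 11 were looked at after its values had been seen. Within 200 kb of the gene, 21 genes are annotated and 6 were compared, DUSP8 included. KRTAP5-AS1, an antisense RNA gene that starts 0.567 kb inside DUSP8 on the other strand, had 4 reads in WT, 47 in P1048R, 27 in T1202K and 19 in C1233W. KRTAP5-1, a gene of a keratin-associated family of similar sequences and therefore uncertain, starts 13.4 kb upstream of DUSP8 and had 0, 36, 25 and 11 reads in the same order. Both followed the order of DUSP8 over the libraries, lowest in WT and highest in P1048R, and both reached 1 CPM only in the mutants. In KRTAP5-AS1, C1233W and T1202K did not differ beyond counting error (log2 −0.36, −1.30 to 0.52). For KRTAP5-AS1 the log2 ratios of P1048R, T1202K and C1233W to WT were 3.05 (1.75 to 5.14), 2.33 (0.96 to 4.45) and 1.97 (0.51 to 4.12). Set against the floor of 3 reads in the WT library, KRTAP5-1 was 9.39-fold higher in P1048R, 6.88-fold in T1202K and 3.31-fold in C1233W. The counting intervals of its log2 ratios to WT began at 2.86, 2.38 and 1.18, and had no upper limit because WT had 0 reads.

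Further away the pattern was mixed. BRSK2, a brain-enriched kinase gene starting 182 kb downstream, was at 21.1 CPM in WT and 47.7, 43.7 and 42.7 in the mutants, log2 ratios of 1.18 (0.94 to 1.42), 1.05 (0.81 to 1.30) and 1.02 (0.77 to 1.27). With upper-quartile scaling the T1202K and C1233W ratios of BRSK2 were under 2-fold (0.90 and 0.95), as they were with the trend of GC content and length removed (0.79 and 0.80). MOB2, which lies between BRSK2 and DUSP8, was at 13.3 CPM in WT and 13.4 to 19.0 in the mutants. The lysosomal protease gene CTSD, 193 kb upstream, was at 34.5 CPM in WT and 26.6 to 36.5 in the mutants. Neither passed the size rule in any mutant. The exons of KRTAP5-AS1 share 0 bases with those of DUSP8 and 0 with those of KRTAP5-1, but the strand setting used in counting is not known here, so reads from unspliced RNA of one strand could have been counted for the other. The processed pseudogene DUSP8P5, whose sequence resembles DUSP8, had 40 reads in WT, 41 in P1048R, 41 in T1202K and 17 in C1233W, and did not follow the order of DUSP8.

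**Figure D3:**
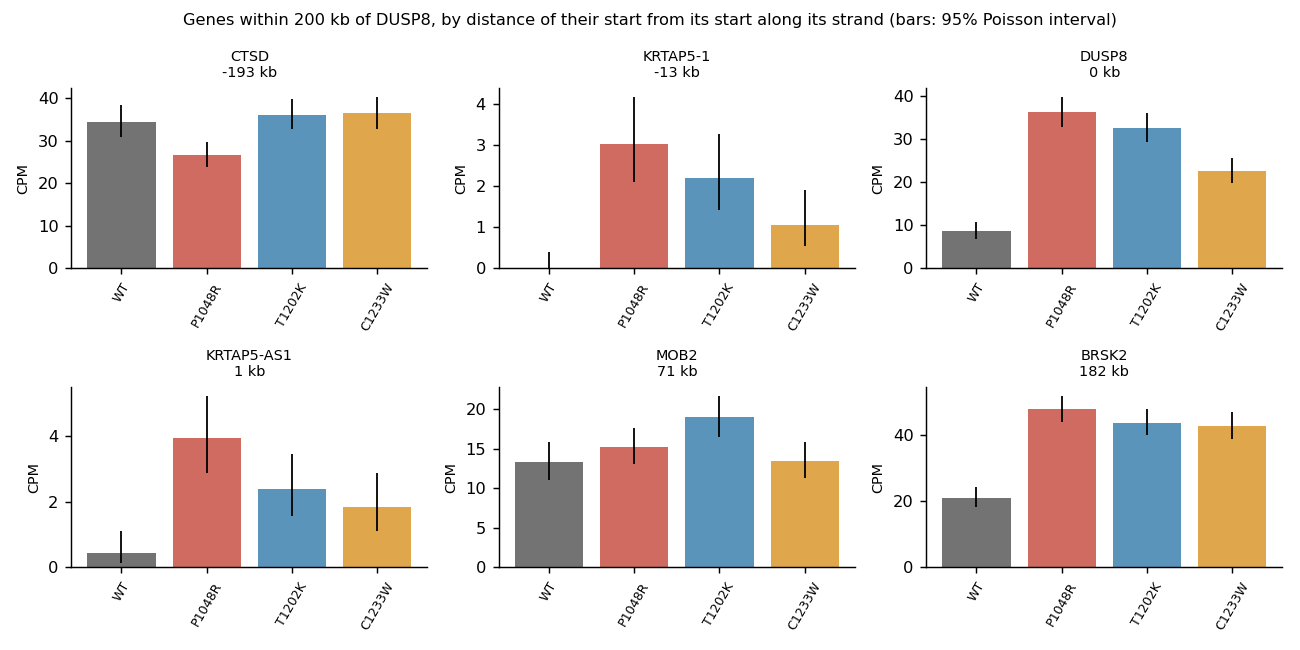
Level in CPM of the 6 genes within 200 kb of DUSP8 that passed the level filter, each panel headed by the distance of the gene's start from that of DUSP8 along its strand (negative is upstream); bars are the 4 libraries, 1 per construct, with 95% Poisson intervals. KRTAP5-1, DUSP8, KRTAP5-AS1 and BRSK2 share the order P1048R, T1202K, C1233W, WT, though not each step is beyond counting error, whereas CTSD and MOB2 do not.

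By rule, the protein-coding genes whose pattern was most like that of DUSP8 were also sought. Likeness was the Euclidean distance between the 4 centred log2 CPM values, over 11088 genes with a mean of at least 5 CPM. The nearest were TTC21A, at 2.25, 8.88, 8.57 and 5.80 CPM in WT, P1048R, T1202K and C1233W (distance 0.089), then ZNF416 (distance 0.15) and NIPAL2 (0.16). Each pattern rests on 4 values.

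The other phosphatases of JNK and p38 differed less. DUSP16, a JNK phosphatase gene (chr12:12474210-12562383, minus strand), stood at 91.2 CPM in WT, 146 in P1048R, 128 in T1202K and 118 in C1233W. WT was the lowest and P1048R the highest, and each step in this order was beyond counting error, though the step from C1233W to T1202K was not with upper-quartile scaling. The log2 ratios to WT were 0.68 (0.56 to 0.80), 0.49 (0.37 to 0.62) and 0.37 (0.24 to 0.49), all under 2-fold. The order of the libraries was thus that of DUSP8 at a smaller size. DUSP10 (chr1:221701424-221742176, minus strand), which acts on p38 and JNK, was at 6.42 CPM in WT, 6.78 in P1048R, 6.09 in T1202K and 7.64 in C1233W. No pair of libraries differed in DUSP10 beyond counting error; the widest interval against WT, that of T1202K, ran from −0.60 to 0.45.

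Of the inducible nuclear enzymes, DUSP1 and DUSP4 were lower in WT than in the mutants, and DUSP5 was higher in WT, in each case under 2-fold. DUSP1 (chr5:172768090-172771195, minus strand), an immediate early gene whose enzyme acts on p38, JNK and ERK, was at 51.5 CPM in WT, 63.5 in P1048R, 72.1 in T1202K and 68.9 in C1233W. The mutants lay above WT by 0.30 (0.14 to 0.47), 0.49 (0.32 to 0.65) and 0.42 (0.25 to 0.59) on the log2 scale. Among them, T1202K exceeded P1048R by 0.18 (0.04 to 0.33), a difference that was within counting error on total-count scaling and with the trend of GC content and length removed. AC022217.3, antisense to DUSP1 and sharing 0 exon bases with it, had at most 7 reads in a library.

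DUSP4, a nuclear phosphatase of ERK and JNK, was at 10.8 CPM in WT, 17.3 in P1048R, 16.5 in T1202K and 15.5 in C1233W. The mutants did not differ from one another beyond counting error, and their log2 ratios to WT were 0.68 (0.33 to 1.04), 0.61 (0.25 to 0.98) and 0.52 (0.15 to 0.89). DUSP5 (chr10:110497838-110511544, plus strand), which binds and inactivates ERK in the nucleus, went the other way. It was at 22.5 CPM in WT, 12.1 in P1048R, 13.7 in T1202K and 17.2 in C1233W, log2 ratios of −0.90 (−1.21 to −0.58), −0.71 (−1.02 to −0.41) and −0.38 (−0.68 to −0.09). P1048R and T1202K did not differ in DUSP5 beyond counting error. C1233W was above P1048R by 0.51 (0.19 to 0.84) and above T1202K by 0.33 (0.01 to 0.65), where on total counts the latter interval contained 0 (0.29, −0.03 to 0.61). With upper-quartile scaling the ratio of P1048R was −1.01 and passed the size rule, and on total counts that of C1233W was −0.25 with an interval that reached 0. The pseudogene DUSP5P1 had 2 to 7 reads in each library.

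**Figure D4:**
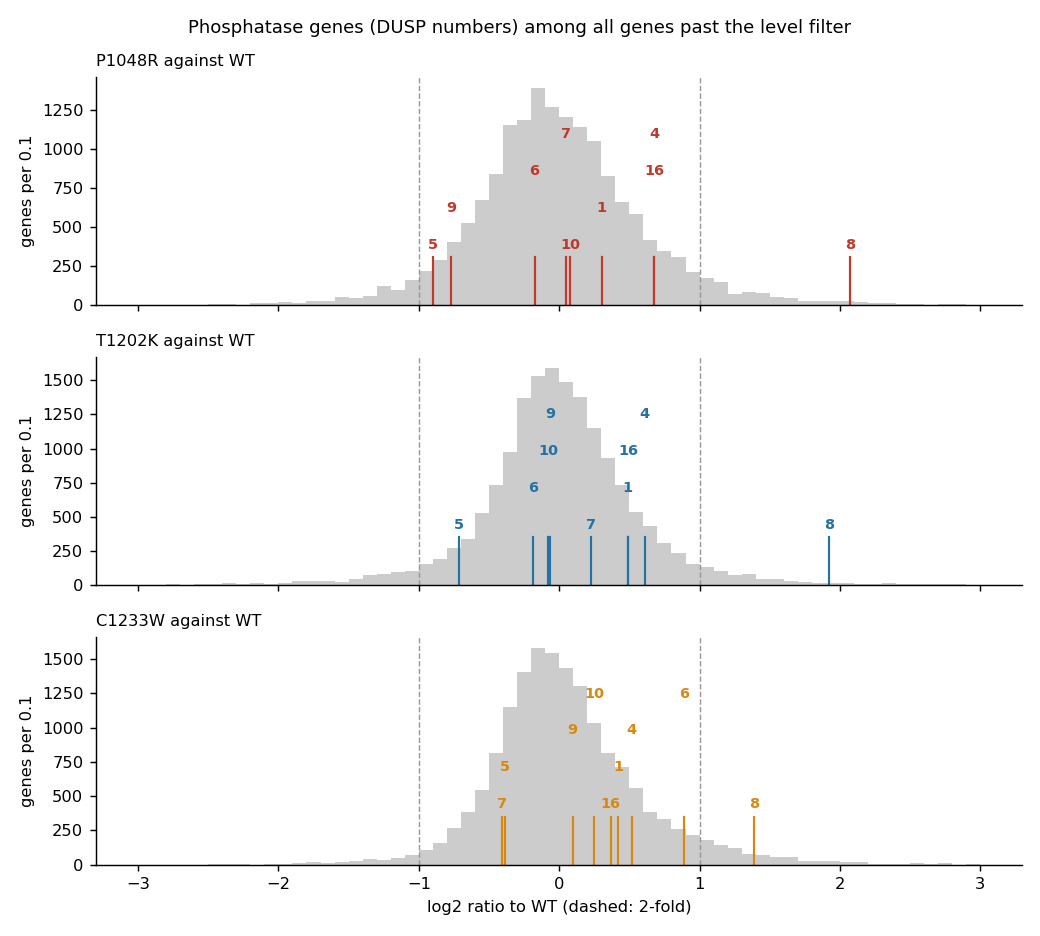
Number of genes per 0.1 of log2 ratio to WT (grey, of 16262 genes compared, ratios from −3 to 3 drawn) for each mutant, with coloured marks at the 9 phosphatase genes, labelled by DUSP number, and dashed lines at 2-fold. DUSP8 lies in the right tail in each mutant, while the other 8 members lie within 2-fold of WT.

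Among DUSP6, DUSP7 and DUSP9, the cytoplasmic ERK phosphatases, the library that stood apart differed from gene to gene. DUSP6 (chr12:89347232-89353271, minus strand), the feedback phosphatase transcribed in response to ERK activity, was at 3.21 CPM in WT, 2.85 in P1048R, 2.83 in T1202K and 6.0 in C1233W. C1233W was high with 62 reads, and the other libraries, with 30 to 34 reads, did not differ among themselves beyond counting error. DUSP6 passed the size rule in C1233W against P1048R (log2 1.06, 0.45 to 1.72) and against T1202K (1.07, 0.45 to 1.75), and lay under 2-fold against WT (0.89, 0.25 to 1.58). On total counts the ratio to WT was 1.02 and passed, and that to P1048R was 0.97 and did not. It was the only member that passed between mutants: 1 of 9 in C1233W against P1048R, where 4.54% of all genes passed, 1 of 9 against T1202K (3.54%), and 0 of 9 in T1202K against P1048R (1.24%, with 0.572% higher and 0.664% lower). AC024909.2, antisense to DUSP6 over 1875 exon bases, had 1 read in WT and 0 in the mutants.

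DUSP7 (chr3:52048919-52056550, minus strand), a cytoplasmic phosphatase of ERK, was at 24.1 CPM in WT, 24.9 in P1048R, 28.2 in T1202K and 18.2 in C1233W. Here C1233W was low, by −0.40 against WT (−0.69 to −0.12), −0.45 against P1048R (−0.72 to −0.18) and −0.63 against T1202K (−0.90 to −0.37), and the other libraries did not differ beyond counting error. On total counts the interval of C1233W against WT reached 0, and P1048R and T1202K exceeded WT by 0.27 and 0.40 with intervals above 0. DUSP9 (chrX:153642492-153651326, plus strand), an ERK phosphatase of placenta and early embryo, was at 14.0 CPM in WT, 8.21 in P1048R, 13.4 in T1202K and 15.0 in C1233W. P1048R was low, by −0.77 against WT (−1.16 to −0.38), T1202K exceeded it by 0.71 (0.33 to 1.09) and C1233W by 0.87 (0.49 to 1.25). With the trend of GC content and length removed, T1202K also lay below WT in DUSP9, by −0.45 (−0.79 to −0.10).

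The kinases upstream, the kinases that DUSP enzymes switch off, and the transcripts that answer to them were then counted from lists, with the same size rule. Like the members, these lists were drawn up with results of these libraries known. Of 14 MAP kinase genes compared, 1 was higher and 1 lower in P1048R and in T1202K than in WT, and 1 was higher in C1233W. Beside these stand 4.48% higher and 3.02% lower of all genes in P1048R, 2.95% and 2.21% in T1202K, and 4.19% higher in C1233W. Neither of the called genes reaches 5 CPM in a library, so with that minimum 0 of 10 passed in each mutant. Of all genes at that minimum, 4.95% passed in P1048R, 2.94% in T1202K and 2.71% in C1233W. The higher one was MAPK11, which encodes p38 beta, with 11 reads in WT, 47 in P1048R, 44 in T1202K and 47 in C1233W. WT was low, and the log2 ratios were 1.69 (0.77 to 2.84), 1.68 (0.75 to 2.83) and 1.90 (0.98 to 3.05). The lower one was MAPK15, an atypical kinase of the ERK group, with 37 reads in WT, 19 in P1048R and 20 in T1202K (log2 −1.30, −2.20 to −0.48, and −1.15, −2.03 to −0.34); on total counts the ratio of T1202K was −0.97. Of 7 MAP2 kinases, 23 MAP3 and RAF kinases and 18 substrates of JNK and p38, none passed the rule in any pair of libraries.

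Of 25 genes for RAS proteins, their regulators and scaffolds, none passed in a mutant against WT. In C1233W, 2 were higher than in P1048R, beside 3.73% of all genes. They were the RAF scaffold gene KSR2 (log2 1.03, 0.48 to 1.60) and RASAL1, a RAS inhibitor (23 reads against 12), and neither passed on total counts. KSR2 was also higher in C1233W than in T1202K (1.12, 0.56 to 1.72), 1 of 25 beside 3.05% of all genes. Among 11 atypical DUSP and tyrosine phosphatase genes, none passed against WT. In C1233W, 1 was lower than in P1048R (beside 0.806% of all genes) and than in T1202K (beside 0.486%). DUSP28 was lower in C1233W than in P1048R (−1.08, −1.74 to −0.49) and than in T1202K (−1.05, −1.71 to −0.44; −0.96 with upper-quartile scaling and −0.98 once the GC and length trend was taken out), and shares 463 exon bases with ANKMY1 on the other strand.

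Several transcripts of the ERK pathway were highest in C1233W, as DUSP6 was. Of 9 feedback inhibitors, 1 was higher in C1233W than in each of the other libraries. The share of all genes called higher there was 4.19% against WT, 3.73% against P1048R and 3.05% against T1202K. The inhibitor was SPRY4, a Sprouty inhibitor of receptor signalling, with 7 reads in WT, 12 in P1048R, 15 in T1202K and 31 in C1233W. Its log2 ratio in C1233W was 1.92 to WT (0.79 to 3.43), 1.54 to P1048R (0.57 to 2.67) and 1.15 to T1202K (0.25 to 2.17). Of 24 ERK-responsive transcripts, 6 were higher and 0 lower in C1233W than in WT, beside 4.19% of all genes. EGR3 was compared only through its level in C1233W, and EGR2 was under 1 CPM in WT, so the count cannot be read as support. With a minimum of 5 CPM, 4 of 18 were higher and 0 lower, beside 282 higher and 48 lower of all 12193 genes compared there. ETV4, ETV5 and FOS reached that minimum only in C1233W, so the count of 4 cannot be read as support either. ETV4, an ETS factor induced by growth factor signalling, was at 2.14 CPM in WT, 2.93 in P1048R, 3.00 in T1202K and 8.42 in C1233W, and its relative ETV5 at 2.67, 3.85, 3.89 and 9.67 CPM. Both were high in C1233W alone, with log2 ratios to WT of 1.95 (1.26 to 2.76) and 1.83 (1.21 to 2.55). ETV4 shares 68 exon bases with DHX8 on the other strand.

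The other transcripts of this list that passed in C1233W were the zinc finger gene EGR2 (4 reads in WT, 20 in C1233W), the stress factor gene ATF3 (84.4 CPM in WT, 199 in C1233W), and EGR3 and FOS, named after their values were seen. ATF3 was likewise higher in P1048R (232 CPM, log2 1.45, 1.34 to 1.57), the 1 of 24 that was higher there, beside 4.48% of all genes. FOSB and IER3, also named afterwards, were the 2 of 24 that were lower in P1048R, beside 3.02%. In T1202K none was higher (beside 2.95%), and FOSB was lower, 1 of 24 beside 2.21%. The median of the list relative to WT was −0.23 in P1048R, 0.19 in T1202K and 0.46 in C1233W. Against WT, the C1233W count was 6 higher and 0 lower under each scaling, whereas the others moved: on total counts 3 of the list were higher and 1 lower in P1048R, and 1 was higher in T1202K. Of all 16206 genes on total counts, 1253 were higher and 231 lower in P1048R, and 806 were higher in T1202K. With a minimum of 5 CPM the P1048R median of the list was 0.09. At the minimum of 1 CPM used throughout, C1233W had a list median of 0.59 against P1048R, with 7 genes higher (beside 3.73% of all genes), and of 0.28 against T1202K, with 3 higher (3.05%). At 5 CPM these medians were 0.29, with 4 of 18 higher (beside 168 of all 12193 genes), and 0.21, with 2 of 18 higher (beside 105). ETV4 and ETV5 are in both counts and FOS in the former, and each reached 5 CPM only in C1233W. Of 17 growth factor receptor genes, 1 was lower in P1048R than in WT (beside 3.02% of all genes), KDR, with 8 reads against 23, and KDR does not reach 5 CPM. With upper-quartile scaling 2 were lower in P1048R and 1 in T1202K, beside 721 and 589 of all 16330 genes. In C1233W 1 was higher (beside 4.19%), the neurotrophin receptor gene NTRK2, with 76 reads against 28 (log2 1.28, 0.65 to 1.98). Between mutants, KDR was higher in C1233W than in P1048R (1 of 17, beside 3.73%), and KDR, NTRK2 and RET were higher than in T1202K (3 of 17, beside 3.05%). With a minimum of 5 CPM these counts were 0 of 15 and 1 of 15, beside 168 and 105 of all 12193 genes. The 1 receptor gene was NTRK2, which reached 5 CPM only in C1233W. The median of the 17 receptor genes in C1233W was 0.18 against WT, with 12 above 0. It was 0.50 against P1048R, with 16 above 0, and 0.40 against T1202K, with 15 above 0. Relative to WT, the receptor median was −0.28 in P1048R, with 2 above and 15 below 0. In T1202K it was −0.15, with 3 above and 14 below.

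**Figure D5:**
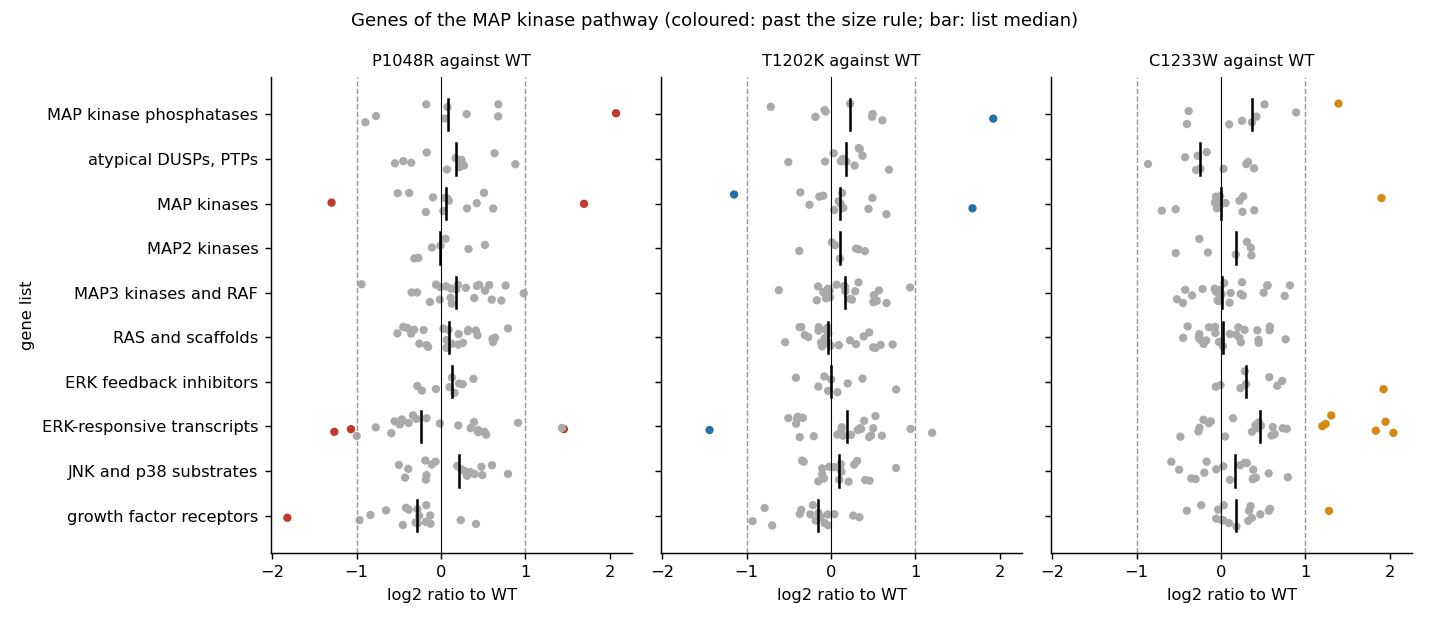
Log2 ratio to WT of the compared genes of the phosphatase family and 9 lists of the MAP kinase pathway, 1 panel per mutant; points are genes, coloured where they passed the size rule, black bars are list medians and dashed lines mark 2-fold. In C1233W 6 of 24 ERK-responsive transcripts are coloured, all higher, while the MAP2 and MAP3 kinases are not coloured in any panel.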

How the data were processed

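Total RNA (TRIzol, then column purification) was sequenced from stranded Qiagen libraries, per the labels' protocols. The authors deposited raw counts of reads per gene, whole numbers in a single table. Per the submitters' processing notes, the tools were Trim Galore, HISAT2 and featureCounts with hg38; versions, annotation and strand setting were not found there. All 58735 identifiers matched GENCODE release 29, which gave positions, exon lengths and GC content.

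Library sizes were scaled by TMM in edgeR 4.0.16 under R 4.3.3. Genes reaching 1 CPM in any library were compared by log2 ratios, with 0.5 added to each count. Ratio intervals (95%) were derived by the Clopper-Pearson method from the reads of both libraries, those of levels were exact Poisson, and both, like the floor of 3 reads, cover counting error only. The procedure was tested on simulated data with counting error only, which cannot show how far cultures of the same construct differ. With 1 library per construct no p-value was computed.

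The members and lists were chosen with earlier results of these data known. Named outside the family were, per list, at most 4 genes past the rule with the largest ratio to WT. Alternatives were total counts, DESeq2 1.42.0 size factors, upper-quartile factors, PBRM1 reads left out, other filters, thinned counts, an added count of 2 and removal of the GC and length trend.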

Additional observations from a re-analysis of the deposited data

How the results depend on the processing

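DUSP8 passed the size rule against WT in each mutant under all 9 alternatives to the processing, with log2 ratios, over those that can change them, from 1.86 to 2.30 in P1048R, 1.59 to 2.10 in T1202K and 1.16 to 1.52 in C1233W. The number of members past the rule changed in 3 cases: it was 2 in P1048R against WT with upper-quartile scaling (DUSP5 joined), 2 in C1233W against WT on total counts (DUSP6 joined), and 0 in C1233W against P1048R on total counts (DUSP6 left). Alternatives for the pathway lists were chosen after seeing the data. With a minimum of 5 CPM, which SPRY4, MAPK11, MAPK15, EGR2, EGR3 and KDR did not reach, 0 ERK feedback inhibitors passed in C1233W against WT, P1048R or T1202K, and 4 ERK-responsive transcripts passed in C1233W against P1048R. Of the latter, ETV4, ETV5 and FOS reached that minimum only in C1233W. Of all genes at that minimum, 2.71% passed in C1233W against WT, 1.65% against P1048R and 1.02% against T1202K. Scaling shifts all genes together: the median log2 ratio to WT was 0.19 in P1048R, 0.17 in T1202K and 0.13 in C1233W on total counts, and −0.17, −0.16 and −0.08 with upper-quartile factors. Higher and lower calls were 728 and 491 in P1048R, 479 and 359 in T1202K and 681 and 197 in C1233W. They became 1253 and 231, 806 and 221, and 943 and 125 on total counts, and 528 and 721, 326 and 589, and 573 and 253 with upper-quartile factors. No paired analysis was possible because each construct had 1 library. Depth limits DUSP2 (2 or 3 reads) and DUSP6 (30 to 62 reads) most.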
